A study of Mus musculus with 2 samples.

Results

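A set of 10 genes of the cornified envelope and the epithelial barrier were followed in mouse periodontal tissue: *Krtdap*, *Sbsn*, *Lor*, *Ivl*, *Sprr1a*, *Sprr1b*, *Lgals7*, *Sfn*, *Perp* and *Mt4*. These 10 genes were chosen by name from the 31053 genes of the count tables. Single cells came from C57BL/6 mice of WT genotype, 8 weeks old, whose gingiva and alveolar bone surface were collected and digested. The ligature-induced periodontitis (LIP) library was made 7 days after a ligature was placed around a tooth to provoke inflammation, and the control library came from mice with no treatment. Each library pooled 5 mice, so each condition was 1 library, differences between mice could not be measured, and no p-value is given. Values are therefore compared with exact 95% intervals, which cover counting error only.

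Stratified epithelia such as the gingiva are renewed from a basal layer, and cells that move upwards build a cornified envelope beneath the plasma membrane. Loricrin, involucrin and the small proline-rich proteins are crosslinked into this envelope by transglutaminases, while desmosomes hold neighbouring cells together and secreted proteins accompany differentiation. Small proline-rich proteins are also known to be made by stressed or wounded epithelium.

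The members lie in few places of the genome (mm10, gene models of GENCODE vM21). *Lor*, *Sprr1b*, *Sprr1a* and *Ivl* lie on the minus strand of chromosome 3 within 493465 bases, in the epidermal differentiation complex, a cluster of genes for envelope proteins. *Sprr1b* (chr3:92436809-92438789) and *Sprr1a* (chr3:92483952-92485895) are 45162 bases apart. On chromosome 7, *Sbsn* (chr7:30751471-30756134) and *Krtdap* (chr7:30787896-30791097) are 31761 bases apart with only *Dmkn* among coding genes between them, and *Lgals7* lies at chr7:28863853-28866284. *Sfn* lies at chr4:133600556-133602168, *Perp* at chr10:18845020-18857073 and *Mt4* at chr8:94137197-94139031, where *Mt3* is the next coding gene, 13575 bases away. The 250 bases before the transcription start are shown for *Sprr1b* and the 4 members that differed by 2-fold or more between the libraries. They were read 5′ to 3′ on the strand of each gene from the RefSeq promoter table of GRCm38.p6, the assembly that mm10 names. Capitals mark TGANTCA, a loose form of the site of AP-1 factors, and TATAAA, the TATA box. N was any base, and it is A in *Sprr1b* and *Sbsn*. TGANTCA reads alike on both strands, and TATAAA was searched on both strands. The windows are chr3:92485882-92486131 and chr3:92438780-92439029 on the minus strand of chromosome 3, then chr7:30787655-30787904, chr7:30751221-30751470 and chr8:94136954-94137203 on plus strands.
Sprr1a: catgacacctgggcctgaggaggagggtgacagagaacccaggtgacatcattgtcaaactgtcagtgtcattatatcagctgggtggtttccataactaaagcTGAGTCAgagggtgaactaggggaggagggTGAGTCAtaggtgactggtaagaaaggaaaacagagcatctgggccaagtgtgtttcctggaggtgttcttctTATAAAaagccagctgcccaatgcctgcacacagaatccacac
Sprr1b: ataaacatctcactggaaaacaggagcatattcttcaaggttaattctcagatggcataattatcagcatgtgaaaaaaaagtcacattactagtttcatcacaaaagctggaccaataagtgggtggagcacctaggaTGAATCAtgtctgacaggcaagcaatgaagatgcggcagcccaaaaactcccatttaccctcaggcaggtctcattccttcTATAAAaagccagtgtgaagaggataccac
Krtdap: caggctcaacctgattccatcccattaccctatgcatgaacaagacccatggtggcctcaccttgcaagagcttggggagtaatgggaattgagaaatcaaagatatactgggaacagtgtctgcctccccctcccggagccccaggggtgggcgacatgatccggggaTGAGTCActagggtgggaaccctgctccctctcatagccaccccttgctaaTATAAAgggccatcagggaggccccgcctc
Sbsn: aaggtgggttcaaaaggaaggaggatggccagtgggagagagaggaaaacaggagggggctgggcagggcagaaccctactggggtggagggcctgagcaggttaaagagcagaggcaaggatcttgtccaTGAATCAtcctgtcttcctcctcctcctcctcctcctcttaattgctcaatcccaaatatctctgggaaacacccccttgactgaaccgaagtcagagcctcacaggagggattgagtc
Mt4: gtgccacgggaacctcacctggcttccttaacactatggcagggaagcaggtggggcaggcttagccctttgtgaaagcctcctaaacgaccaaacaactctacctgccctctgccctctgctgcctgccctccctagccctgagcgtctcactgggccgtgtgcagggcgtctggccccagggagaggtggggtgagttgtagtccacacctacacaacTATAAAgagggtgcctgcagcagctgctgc

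Of the 9 members in that table (*Perp* was not in it), 6 held TGANTCA in these 250 bases, against 6.75% of all 32841 promoters, and *Sprr1a* held it 2 times, as 0.338% of promoters did or more often. TATAAA was found in 6 of the 9 members and in 12.4% of promoters. Both stood together in 5 of the 9, namely *Lor*, *Ivl*, *Sprr1a*, *Sprr1b* and *Krtdap*, and in 1.21% of promoters. *Sbsn* held TGANTCA alone, *Mt4* TATAAA alone, and *Lgals7* and *Sfn* neither. These are matches of letters, and binding was not measured.

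The LIP library kept 936 of 1212 barcodes with 10560109 unique molecular identifiers (UMIs, each counting 1 captured transcript), and the control library 883 of 1169 with 13407122. Median depth was 5595 UMIs per cell in LIP and 10845 in control, and 2 barcode sequences occurred in both libraries. Among the kept barcodes Scrublet marked 2 in each library as doublets, and these were not removed. The class called epithelial-like from its markers held 112 LIP cells (12%) and 226 control cells (25.6%), with medians of 23928.5 and 27594.5 UMIs. *Krt14*, one of the markers listed for that name, was found in 107 of the 112 LIP cells and 223 of the 226 control cells. In control, epithelial-like cells with *Krt14* held a median of 358 UMIs of it. It was also found in 32 of 52 control neutrophils, at a median of 1 UMI. The members and the pathway lists had no part in the clustering.

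The members' transcripts lay mostly in epithelial-like cells. These cells held 92.8% of the UMIs of the 10 members in LIP (95% interval 92.5 to 93.2) and 91.6% in control (91.4 to 91.8), while they held 24.4% and 46.3% of the UMIs of all genes. At a mitochondrial limit of 5% the shares of the members were 67.4% and 51.0%. A neighbouring sub-cluster of cells in S phase, which the marker rule left unnamed, held a further 4.71% and 7.26% of member UMIs. *Sbsn* was the least restricted of the members with over 100 UMIs in each library, at 74.0% in LIP and 79.7% in control.

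**Figure D1:**
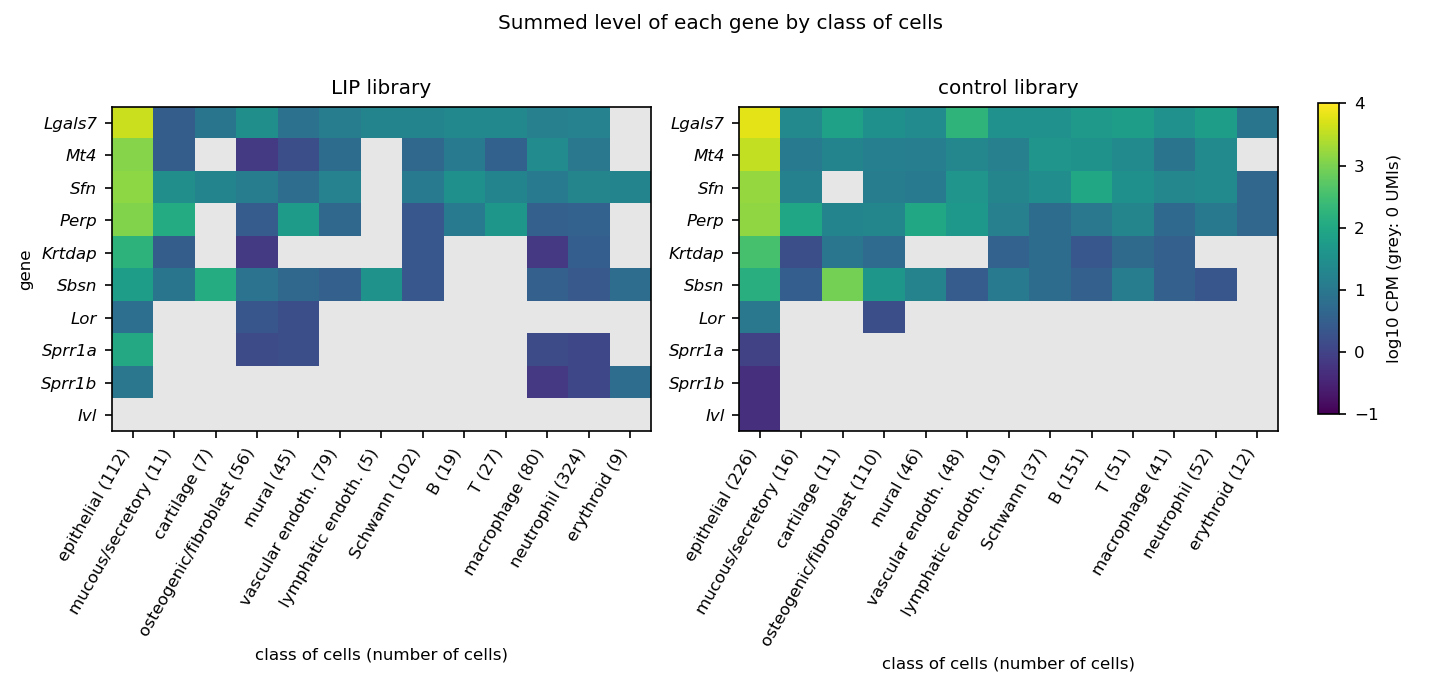
Summed level of each gene, as log10 of CPM (UMIs scaled to 1000000 UMIs of the class), in 13 classes of cells of the LIP and control libraries, with the number of cells in parentheses and grey for 0 UMIs. The epithelial column holds the highest level in both libraries for most genes; *Sbsn* in cartilage-like cells of the control library (907 CPM) lies above its level in epithelial-like cells (135 CPM).

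Outside the epithelium most values were low, and droplets take up free RNA from burst cells. If such RNA came from 1 source, the members would keep the same ratio to *Krt5* and *Krt14* as in epithelial-like cells. Among 41 pairs of a member and a class of one library with at least 10 UMIs, 28 lay within 4-fold of that ratio and 13 above it. This minimum left out low pairs, such as *Mt4* in control vascular endothelial cells (7 UMIs against 25.8 at that ratio). It could therefore hardly show a pair more than 4-fold below. In control B cells, for example, *Mt4* had 32 UMIs against 32.0 at that ratio and *Lgals7* 44 against 56.5. Some of the 28 lay above it beyond counting error, such as *Sfn* at 3.81-fold in osteogenic or fibroblast-like cells of LIP. The source of these UMIs was not tested, and they are not read as expression.

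*Sbsn*, which encodes suprabasin, a protein secreted by suprabasal keratinocytes, was the clearest exception. It had 101 UMIs in 11 of 11 cartilage-like cells of the control library, or 907 CPM (739 to 1102), and 14 UMIs in 4 of 7 such cells in LIP, or 125 CPM (68.6 to 210). Control fibroblast-like and osteogenic cells held a further 55 UMIs in 15 of 110 cells. *Perp* had 40 UMIs in 11 of 11 mucous or salivary cells of LIP and 57 UMIs in 16 of 16 of control, and 36 and 56 UMIs in mural cells. *Sfn* had 87 UMIs in 45 of 151 control B cells, 6.00-fold above the ratio set by the keratins. *Sfn* shares 15% of its 50-base stretches with *Gm5279*, *Gm7850* and *Ywhaq-ps1*, and *Sbsn* 6.96% with the overlapping gene *Tmem147os*. The counts of *Sfn* and *Sbsn* are therefore less certain than those of the others. *Lgals7* overlaps *Gm10648*, and the part of these overlaps in any value was not tested.

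In epithelial-like cells *Sprr1a* was higher in LIP, and *Mt4*, *Sbsn* and *Krtdap* were lower. Levels are given in CPM, the UMIs of a gene scaled to 1000000 UMIs of the class. A member was called when it differed by 2-fold or more and had at least 50 UMIs over both libraries. Of the 10, 8 reached that minimum, *Sprr1a* only through LIP and *Lor* (17 UMIs in LIP, 62 in control) only through control. Of these 8, 1 was 2-fold or more higher in LIP, against 2.32% of 9413 genes, and 3 were 2-fold or more lower, against 1.64%. The 1 higher was *Sprr1a*, whose direction was fixed by passing the minimum only through LIP. The 3 lower had over 50 UMIs in each library. The median log2 ratio of the 8, LIP over control, was -0.61, and that of all 9413 genes -0.02. The median of the 8 lay between *Lor* (-0.60), which the minimum favoured on the control side, and *Lgals7* (-0.63). The class also pools sub-clusters in unlike shares. Suprabasal-like cells, described below, gave 351114 of its 2573987 UMIs in LIP and 1667513 of 6210067 in control. A ratio of the class is therefore not a ratio within 1 kind of cell, and the part of this mix in the calls was not tested. With 1 library for each condition, the ligature and the library cannot be told apart.

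*Sprr1a* encodes a small proline-rich protein that bridges other envelope proteins. It had 263 UMIs in 15 of 112 LIP cells, or 102 CPM (90.2 to 115), and 6 UMIs in 5 of 226 control cells, or 0.966 CPM. The log2 ratio was 6.72 (5.58 to 8.18). *Sprr1b*, its close relative, had 25 UMIs in 11 LIP cells and 3 in 2 control cells, a log2 ratio of 4.33 (2.62 to 6.70) below the UMI minimum. Both stood higher in LIP, but from few cells.

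Of the 263 *Sprr1a* UMIs in LIP, 89.7% lay in 3 cells with 101, 81 and 54 UMIs. These 3 cells belonged to a sub-cluster of 21 LIP and 10 control cells led by *BC037156*, *U90926*, *Sprr2d*, *Ppbp* and *Odam*, called *Odam*-led here. *Odam* encodes a protein known from junctional epithelium and maturing ameloblasts. In this sub-cluster *Sprr1a* had 245 UMIs in 8 of 21 LIP cells (776 CPM) and 2 UMIs in 1 of 10 control cells (8.35 CPM). Its LIP and control cells differed in more than the members, with *Odam* itself at 1436 UMIs in 19 LIP cells and 32 UMIs in 4 control cells, and at medians of 3159 and 26656 UMIs per cell. Without the *Odam*-led cells *Sprr1a* stood at a log2 ratio of 3.57, and too few UMIs were left to call it.

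The barcodes left out for size held more of these transcripts than the cells that were kept. In LIP, 24 barcodes over 7500 genes or 60000 UMIs had 510 *Sprr1a* UMIs, 60.4% of all in the library, and 254 *Sprr1b* UMIs, 85.2%. A single barcode with 153074 UMIs held 497 of the *Sprr1a* UMIs beside 2303 of *Sprr2d* and 1658 of *Odam*. The 16 such barcodes of control held 6 UMIs of *Sprr1a* and 0 of *Sprr1b*. With no upper limit the cells were also clustered anew, which gave 105 LIP and 249 control epithelial-like cells. A shallow sub-cluster of 41 LIP and 28 control cells (median 1329 UMIs) was then unnamed and not counted among them. No sub-cluster of this setting had *Odam* among its leading genes, so the *Odam*-led group was not recovered as such. In this setting *Sprr1a* had 754 UMIs in LIP and 12 in control epithelial-like cells, and *Sprr1b* 256 and 3. The log2 ratios were 7.04 and 7.48, and the part of each change in them was not tested. Then 2 of 9 members, *Sprr1a* and *Sprr1b*, were 2-fold or more higher in LIP. The share of all genes was not computed in this setting. Both members passed the UMI minimum only through LIP, and that fixed their direction. Scrublet scored the barcodes over the upper limits too, but its marks on them were not looked at. Whether such large barcodes were single cells was not tested.

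**Figure D2:**
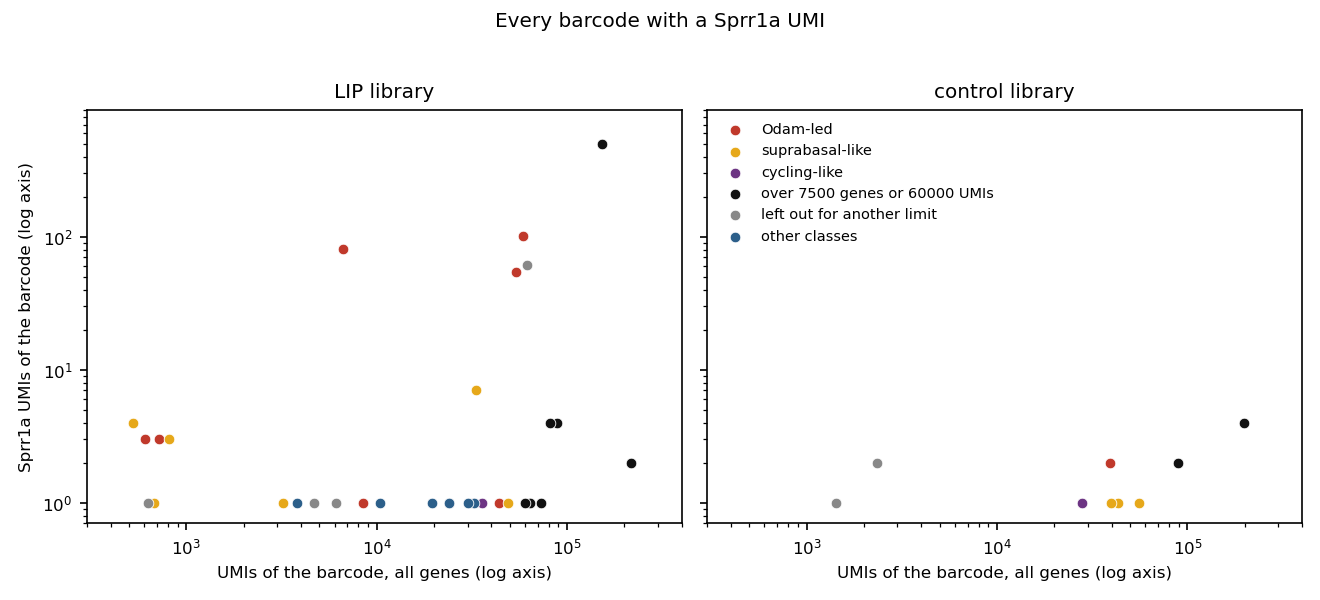
UMIs of *Sprr1a* against UMIs of all genes (both log axes) for every barcode with at least 1 *Sprr1a* UMI, in the LIP and control libraries, coloured by where the barcode was placed; black marks barcodes left out for over 7500 genes or 60000 UMIs. LIP barcodes reach 497 UMIs and no control barcode has more than 4.

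*Lor* and *Ivl* encode loricrin and involucrin, main envelope proteins of keratinized skin. *Ivl* had 0 UMIs in 112 LIP cells, which allows up to 1.17 CPM by the limit of 3 counts (exact 95% limit 1.43 CPM), and 3 UMIs in 226 control cells, or 0.483 CPM. *Lor* had 17 UMIs in 13 LIP cells (6.60 CPM) and 62 UMIs in 27 control cells (9.98 CPM), of which 21 lay in 1 cell. Its log2 ratio of -0.60 had an interval of -1.46 to 0.20, so a difference was not detectable at this depth. Both were scarce in either library.

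*Krtdap* encodes a small secreted protein of differentiating keratinocytes. It had 442 UMIs in 39 LIP cells (172 CPM) and 2217 UMIs in 85 control cells (357 CPM), a log2 ratio of -1.06 (-1.21 to -0.91). *Sbsn* had 154 UMIs in 65 LIP cells (59.8 CPM) and 837 UMIs in 155 control cells (135 CPM), a log2 ratio of -1.17 (-1.43 to -0.92). Thus both neighbours on chromosome 7 were lower in LIP, though at a mitochondrial limit of 5%, which kept 39 LIP and 119 control cells, the ratio of *Krtdap* was 0.93.

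*Mt4* encodes the metallothionein of stratified squamous epithelium and had the lowest ratio of the members. It had 3228 UMIs in 61 LIP cells (1254 CPM) and 21787 UMIs in 183 control cells (3508 CPM), a log2 ratio of -1.48 (-1.54 to -1.43). One LIP cell held 1028 of these UMIs and one control cell 1990, and without both cells the ratio was -1.88. Its relatives *Mt1* and *Mt2* had log2 ratios of 0.19 and 0.19, and *Mt3* -0.56, so none of the 3 other metallothioneins reached 2-fold.

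A UMI of *Mt4* was found in 54.5% of LIP and 81% of control epithelial-like cells. With each cell thinned to 5000 UMIs these shares were 42.4% of 85 and 65.9% of 205 cells, with 27 and 21 shallower cells left out, and for *Sbsn* 12.9% and 25.9%. *Krtdap* was then found in 20.0% and 20.5% of cells. With each cell thinned to 1000 UMIs, *Mt4* was found in 26.5% of 102 LIP and 52.5% of 221 control epithelial-like cells, in 3.97% of 151 control B cells (median 4764 UMIs) and in 0.641% of 312 LIP neutrophils (median 3867 UMIs).

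*Lgals7* encodes galectin-7, a lectin of stratified epithelia, and was the most abundant member. It had 10337 UMIs in 102 LIP cells (4016 CPM) and 38478 UMIs in 225 control cells (6196 CPM), a log2 ratio of -0.63 (-0.66 to -0.59). *Perp*, a tetraspan protein of desmosomes, stood at 1134 and 1460 CPM with a log2 ratio of -0.36 (-0.43 to -0.30). *Sfn*, which encodes the 14-3-3 protein of epithelia, stood at 1387 and 1591 CPM with a log2 ratio of -0.20 (-0.25 to -0.14). These 3 were lower in LIP by less than 2-fold. The ratio of *Sfn* changed sign when each cell counted alike (0.37). It also did so when no upper limit was set and the cells were clustered anew (0.08).

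**Figure D3:**
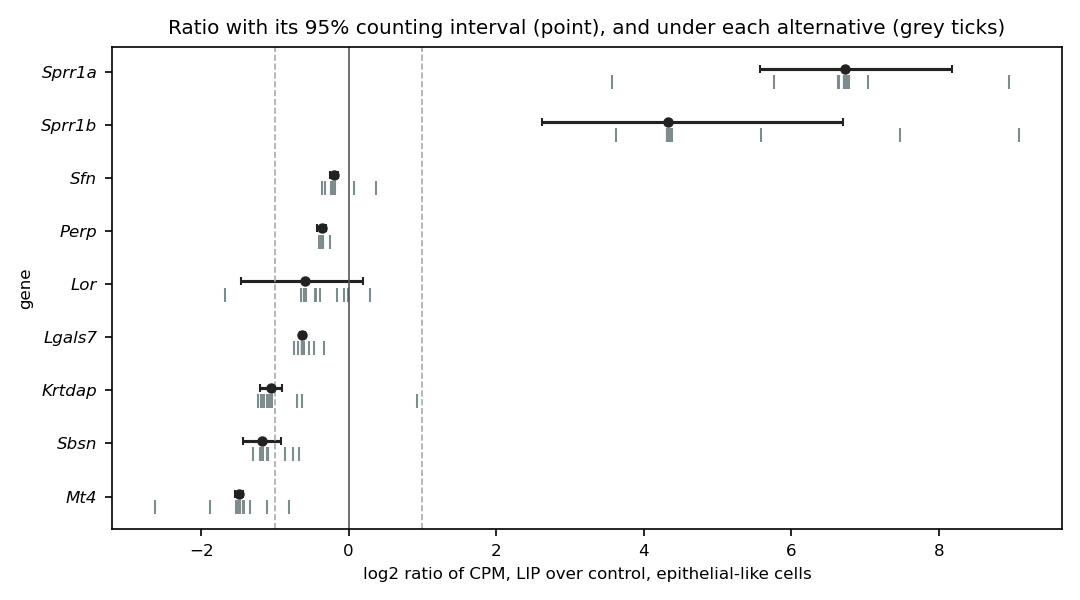
Log2 ratio of CPM, LIP over control, in epithelial-like cells for 9 genes with UMIs in both libraries, with the 95% counting interval (black) and the ratio under each alternative setting (grey ticks); dashed lines mark 2-fold. *Sprr1a* (6.72) and *Sprr1b* (4.33) stand right of 2-fold, *Mt4* (-1.48), *Sbsn* (-1.17) and *Krtdap* (-1.06) left of it, and a single tick of *Krtdap* (0.93) lies on the other side of 0.

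The epithelial-like cells fell into 4 sub-clusters, and the levels of the members differed between them. Suprabasal-like cells (26 LIP, 66 control) carried *Krt13* and *Krt76*, *Pappa*-led cells (51 and 115) carried *Krt5* at 5787 and 6551 CPM, and cycling-like cells (14 and 35) expressed *Mki67*. Suprabasal-like cells had a median of 2603.5 UMIs in LIP and 29413.5 in control, a gap in depth that was not tested as a part of any result. *Krt13* stood at 6890 CPM in LIP and 7264 CPM in control suprabasal-like cells, but 1 LIP cell held 65.0% of its UMIs there, and the top control cell 8.45%.

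From *Pappa*-led to suprabasal-like cells every tested member was higher in both libraries. Of 6 members tested in LIP, 4 were 2-fold or more higher in suprabasal-like cells, against 4.12% of 4103 genes, and of 7 tested in control 6 were, against 3.86% of 7470 genes. *Mt4* went from 282 to 5599 CPM in LIP and from 1662 to 8924 CPM in control, log2 differences of 4.31 and 2.42. *Krtdap* went from 147 to 527 CPM in LIP and from 65.7 to 966 CPM in control, log2 differences of 1.85 and 3.88. *Sbsn* differed by 2.16 and 2.51 on the log2 scale, *Sfn* by 1.15 and 1.19, *Perp* by 1.0 and 1.18, and *Lgals7* by 0.74 and 0.58. *Lor*, tested in control alone, differed by 2.09, but 21 of its 40 UMIs in suprabasal-like cells lay in 1 cell. In LIP suprabasal-like cells 1 cell held 96 of the 185 *Krtdap* UMIs.

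Between LIP and control, *Krtdap* differed in opposite directions in these sub-clusters, a difference that was not tested. In *Pappa*-led cells it had 203 UMIs in 13 of 51 LIP cells and 198 UMIs in 23 of 115 control cells, a log2 ratio of 1.16 (0.87 to 1.45), and 1.19 without the top cell of each library. In suprabasal-like cells it had 185 and 1610 UMIs, a log2 ratio of -0.87 (-1.10 to -0.65), and -1.46 without the top cells. *Mt4* was lower in LIP in both, with log2 ratios of -2.56 (-2.71 to -2.41) in *Pappa*-led and -0.67 (-0.74 to -0.60) in suprabasal-like cells, where the ratio was -1.37 without the top cells, of which the LIP cell held 1028 of 1966 UMIs. The 27 LIP cells too shallow for thinning to 5000 UMIs were suprabasal-like (15) or *Odam*-led (12), as were 18 and 3 of the 21 in control, so the thinned shares above rest on unevenly kept sub-clusters. Within *Pappa*-led cells, of which none was left out, *Mt4* was found in 33.3% of 51 LIP and 56.5% of 115 control cells after thinning, and within suprabasal-like cells in 11 of 11 and 47 of 48.

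Within single sub-clusters few members passed 2-fold between the libraries. In *Pappa*-led cells 1 of 6 tested members was higher in LIP (*Krtdap*), against 1.43% of 7414 genes, and 1 lower (*Mt4*), against 1.58%. In suprabasal-like cells 0 of 6 were higher or lower, against 1.41% and 3.09% of 4338 genes, although all 6 had ratios below 0, with a median of -0.50 beside 0.04 for all genes. That count rested on single cells, since *Krtdap* (-1.46) and *Mt4* (-1.37) passed 2-fold without the top cell of each library. In cycling-like cells 0 of 6 were called, against 0.865% and 3.98% of 4626 genes. There *Mt4* had a log2 ratio of 0.38, which became -0.52 without the top cells. In the S phase cells (10 LIP, 38 control) 0 of 5 were higher, against 5.94% of 4038 genes, and 2 were lower, *Krtdap* at -2.49 and *Mt4* at -1.04, against 4.09%. *Krtdap*, with 11 UMIs in LIP and 200 in control, passed the UMI minimum there only through control, which fixed its direction. *Krt14* stood at 4532 CPM in LIP and 8131 CPM in control S phase cells. The top 3 cells held 90.7% of the *Krt5* UMIs in LIP and 22.5% in control. These unnamed cells may thus hold keratinocytes in unlike shares, and the part of that in the ratios was not tested.

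The *Odam*-led cells held the most calls, but also the largest shares of all genes at 2-fold. In them 1 of 6 tested members was higher in LIP, against 13.8% of 1417 genes, and 3 were lower, against 13.1%. *Sprr1a*, *Krtdap* and *Mt4* passed the UMI minimum only through the library where they were high, which fixed their directions. Of the called members only *Lgals7* passed it in both libraries. *Mt4* had 0 UMIs in 21 LIP cells and 250 UMIs in 3 of 10 control cells, 241 of them in 1 cell, without which 9 UMIs were left in control. *Krtdap* had 3 and 325 UMIs, a log2 ratio of -7.16 (-9.44 to -5.60), with 94.5% of the control UMIs in 3 cells. *Lgals7* stood at 313 and 3864 CPM, a log2 ratio of -3.62. *Sfn* and *Perp* stayed abundant there, at 2530 and 1203 CPM in LIP and 1865 and 1544 CPM in control. *Krt6a* stood at 5341 and 3989 CPM and *Krt16* at 3277 and 1540 CPM in these cells, both keratins of stressed epithelium. One LIP cell held 44.8% of the *Krt6a* and 50.4% of the *Krt16* UMIs, and one control cell 48.2% and 87.5%. Neither keratin was particular to these cells, since suprabasal-like cells had *Krt6a* at 4716 and 6283 CPM and *Krt16* at 1353 and 1045 CPM.

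**Figure D4:**
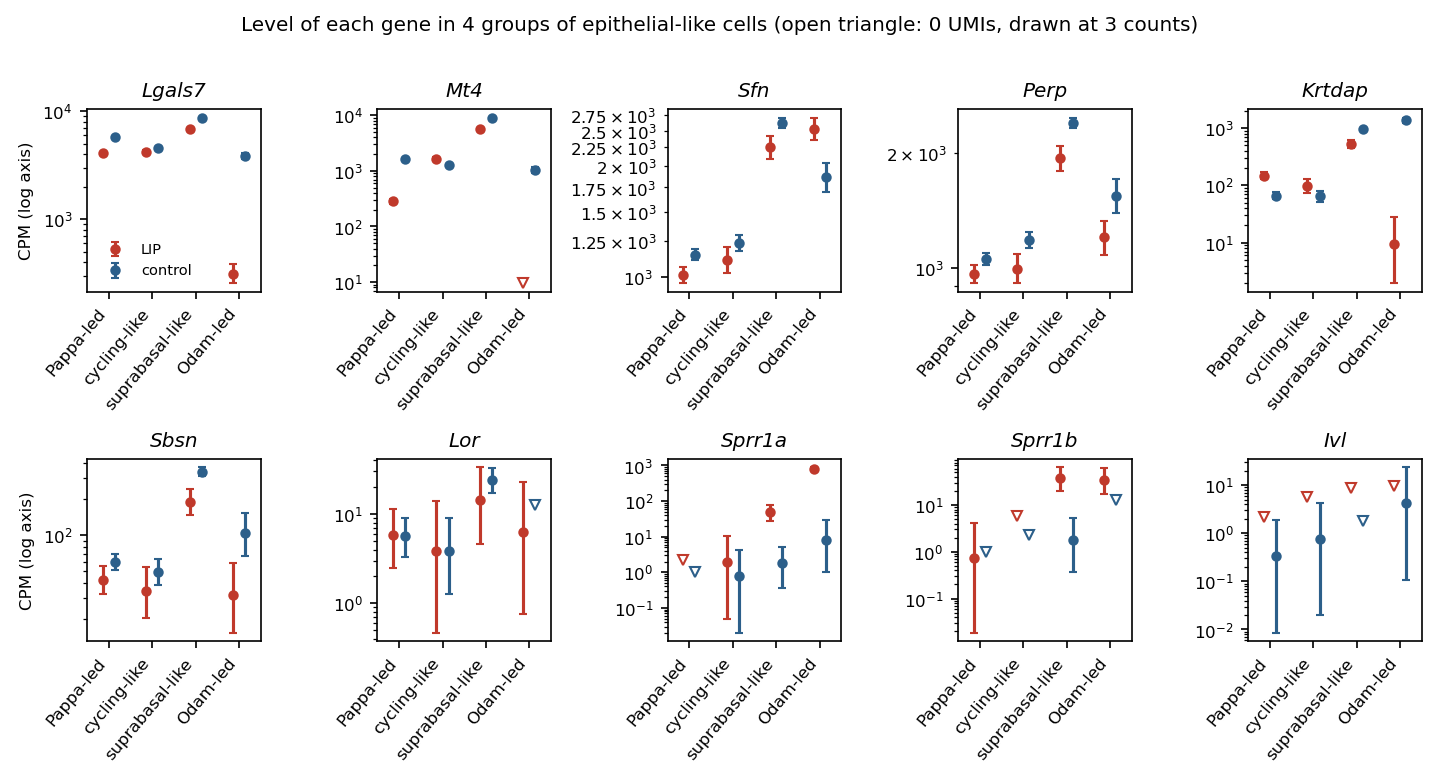
Level of each gene in CPM (log axis, a separate range for each panel) in 4 sub-clusters of epithelial-like cells, LIP in red and control in blue, with 95% counting intervals; open triangles mark 0 UMIs drawn at 3 counts. In LIP, *Mt4* and *Krtdap* peak in suprabasal-like cells (5599 and 527 CPM), and *Sprr1a* in *Odam*-led cells (776 CPM). In control, *Mt4* peaks in suprabasal-like cells (8924 CPM), but *Krtdap* in the 10 *Odam*-led cells (1356 CPM, beside 966 CPM in suprabasal-like cells).

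*Mt4* and *Lgals7* were also highest at the suprabasal end of a keratin score. Epithelial-like cells were placed in 4 bins by the share of suprabasal keratins (*Krt1*, *Krt10*, *Krt4*, *Krt13*, *Krt76*) among these and the basal keratins (*Krt5*, *Krt14*, *Krt15*), cut at 1.15%, 4.21% and 19.9%. *Mt4* stood at 437, 337, 968 and 7542 CPM from the lowest to the highest bin in LIP, and at 991, 817, 1909 and 9094 CPM in control. In the highest bin 1 LIP cell held 1028 of the 2069 *Mt4* UMIs, and the top control cell 12.6%. In the third bin 1 LIP cell held 277 of 462. *Lgals7* went from 2914 to 6507 CPM in LIP and from 4929 to 8040 CPM in control, with each bin above the one before. *Krtdap* was highest in the fourth bin, at 598 and 845 CPM, with no steady climb over the first 3. *Sfn* in LIP did not follow the score, at 1836, 768, 1636 and 1852 CPM. The lowest bin held 26 of the 31 *Odam*-led cells of both libraries beside 42 *Pappa*-led cells. In LIP, *Odam*-led cells had *Sfn* at 2530 and *Lgals7* at 313 CPM, and their part in the values of that bin was not tested. *Mt4*, *Lgals7* and *Sbsn* were lower in LIP than in control in every bin. The highest bin held 22 LIP cells with a median of 2024.5 UMIs and 63 control cells with 29563, and the third bin held 18 LIP cells. A bin is a range of a score, and 99 cells lay within 1 percentage point of the first cut.

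**Figure D5:**
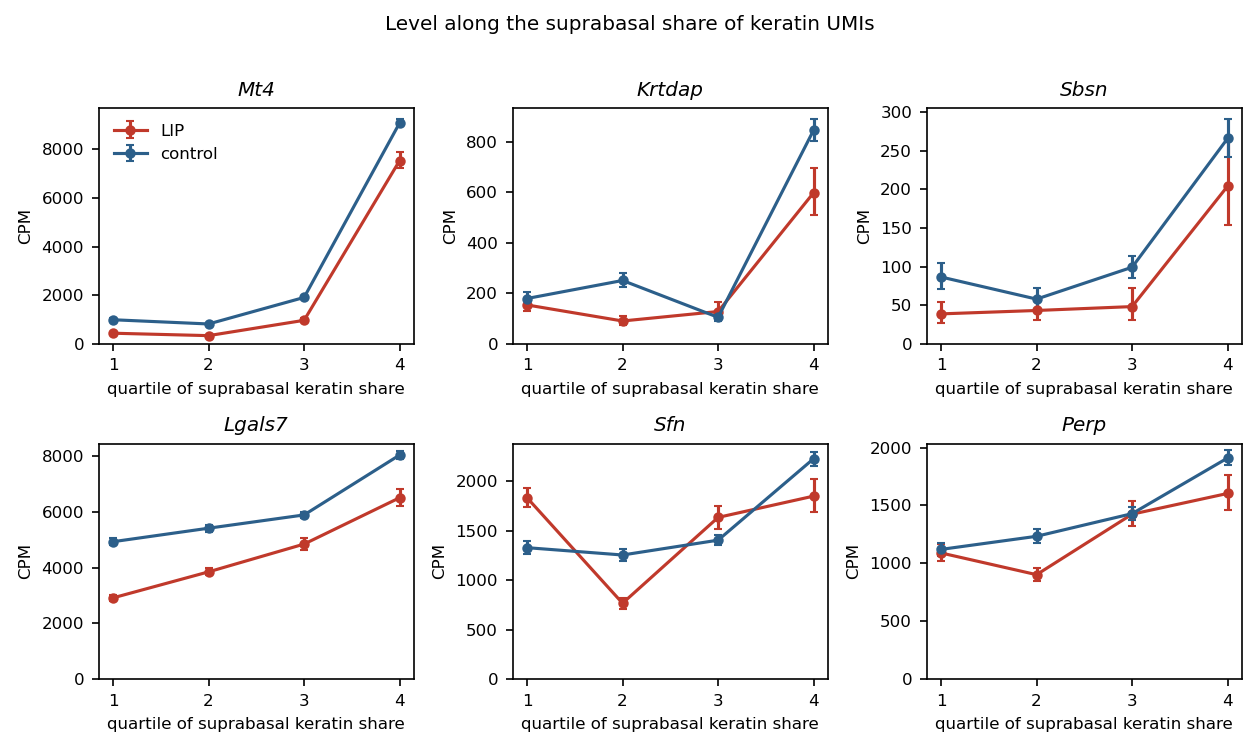
Level in CPM of 6 genes in 4 bins of epithelial-like cells ordered by the suprabasal share of keratin UMIs, LIP in red and control in blue, with 95% counting intervals. *Mt4* reaches 7542 CPM in LIP and 9094 CPM in control in the fourth bin, and *Lgals7* climbs from bin to bin in both libraries.

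For the 6 members found in at least 25% of epithelial-like cells of both libraries, the genes of most similar level from cell to cell were sought among 9126 genes, by Pearson correlation of log-normalized values over 112 LIP and 226 control cells, ranked by the mean of both libraries. The cells of a condition share 1 library, so these are descriptions. Their depth differed between sub-clusters, in LIP from a median of 2603.5 UMIs in suprabasal-like to 38918 in cycling-like cells. The part of depth in these correlations was not tested. *Krtdap* was most like its neighbour *Sbsn* (r = 0.48 in LIP and 0.50 in control), then *Fam25c* and *Fabp5*, both of which stood above *Sbsn* in LIP alone (0.53 and 0.55). *Sbsn* was most like *Spink5* (0.54 and 0.56), *Calm4* and *Fam25c*. *Mt4* went with *Fabp5* (0.67 and 0.73), *Krt13* and *Calml3*, and *Lgals7* with *Mt4* (0.58 and 0.49), *Fabp5* and *Rps26*. *Sfn* went with the stress keratin *Krt6a* (0.76 and 0.62), *Lgals3* and *Lypd3*, and *Perp* with the desmosome gene *Dsp* (0.63 and 0.56), *Gja1* and *Itm2b*. *Fabp5*, a fatty acid carrier, was thus a partner of *Krtdap*, *Mt4* and *Lgals7* alike.

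The other genes of the barrier programme were counted in 11 lists. Of 171 genes 170 were in the tables and 100 had enough UMIs in epithelial-like cells, of which 13 were 2-fold or more higher and 9 lower in LIP, with a median log2 ratio of -0.08. Over all 9413 genes these shares were 2.32% and 1.64%, against which each list below is to be read. All 4 tested small proline-rich genes outside the members were higher, of 12 in the tables, but these 4 passed the UMI minimum only through LIP, which fixed their direction. *Sprr2d* had 3168 UMIs in LIP and 3 in control, but 86.5% of the former lay in 1 *Odam*-led cell. *Sprr2h* had 146 and 11 UMIs, with 113 in 1 LIP cell, *Sprr2f* 229 and 0 with 217 in 1 cell, and *Sprr2e* 77 and 0 with 59 in 1 cell. Like *Sprr1a*, the family was carried by a handful of cells.

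Among envelope proteins 0 of 6 were higher and 2 lower, the protease *Asprv1* (-1.80 on the log2 scale) and the plakin *Ppl* (-1.02). Both passed the UMI minimum only through control, where they were high, with 31 and 42 UMIs in LIP and 261 and 206 in control. Among crosslinking and processing enzymes and inhibitors 2 of 12 were higher and 1 lower. *Tgm1*, a transglutaminase that crosslinks the envelope, had a log2 ratio of 2.22 (1.69 to 2.77), with 81 of its 87 LIP UMIs in *Odam*-led cells, and *Spint1* 1.25, with 50 of its 86 LIP UMIs there. With 45 UMIs in control, *Tgm1* passed the UMI minimum only through LIP. *Spink5*, a protease inhibitor that restrains shedding, had -1.56 (-1.90 to -1.23). Of 10 desmosome genes 0 were higher and 2 lower, the cadherins *Dsg1a* (-1.94) and *Dsg1b* (-1.37) of the upper layers, whereas *Dsg3* stood at 0.05. With 36 UMIs in LIP and 225 in control, *Dsg1b* passed the UMI minimum only through control. *Dsg1a* and *Dsg1b* are close copies that share sequence, so their separate values are uncertain.

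Of 11 tight and adherens junction genes 3 were higher and 1 lower. *Cldn4* (3.80) had 60.5% of its 81 LIP UMIs in 1 cell, *Cldn7* (1.67) was found in 4 LIP and 5 control cells, and *Cldn8* stood at -1.01. With 14 UMIs in control, *Cldn4* passed the UMI minimum only through LIP. With 20 UMIs in LIP and 97 in control, *Cldn8* passed it only through control. Of 20 transcription regulators 1 was higher, *Elf3* at 1.17, with 89.3% of its 56 LIP UMIs in 3 cells, and 0 were lower. *Trp63*, the master regulator of stratified epithelium, stood at 0.25, *Grhl3* at -0.86 and *Hopx* at -0.91. Other secreted or surface genes of suprabasal cells were split, with 3 of 12 higher, among them *Il1rn* (2.41, with 221 of its 285 LIP UMIs in *Odam*-led cells) and *Slpi* (1.79, with 70.7% of its LIP and 83.8% of its control UMIs in 1 cell each), and 3 lower, among them *Krt80* (-1.55) and *Calm4* (-1.32). With 19 UMIs in LIP and 134 in control, *Krt80* passed the UMI minimum only through control.

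The 7 barrier lipid genes, the 4 other galectins, the 3 metallothioneins and the 11 p53 targets tested included none at 2-fold in either direction. *Lgals3*, the other main epithelial galectin, stood at -0.51 beside *Lgals7* at -0.63. Among p53 targets *Phlda3* was highest at 0.44 and *Tnfrsf10b* lowest at -0.47, beside *Sfn* at -0.20 and *Perp* at -0.36, which p53 is also known to regulate.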

How the data were processed

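Single-cell RNA-seq data of 2 libraries were analysed. The authors prepared 10x Genomics 3′ libraries, mapped them to mm10 by Cell Ranger (3.1.0 in the matrix headers) and deposited UMI counts for each gene in each barcode, unnormalized. Barcodes with under 200 or over 7500 genes, over 60000 UMIs or over 10% mitochondrial UMIs were left out, after the study's methods, so transcripts in very large barcodes are missing from the main values. Seurat 5.3.0 (R 4.3.3) joined both libraries by anchors and grouped the cells (2000 variable features without the members and pathway lists, 30 dimensions, resolution 0.1, sub-clusters at 0.2). A cluster was named from at least 3 markers, each found in 25% of its cells and over 2-fold above the other cells with 10 CPM added. Scrublet (scanpy 1.11.5) was run on all barcodes with at least 200 genes, and doublets it marked among the kept barcodes were not removed.

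UMIs were summed per class and library and scaled to CPM, the total of the class. Intervals at 95% are exact (Poisson for levels, Clopper-Pearson for shares, conditional binomial for ratios; scipy 1.17.1, Python 3.11.15), and sums of 0 were compared through a floor of 3 counts. In 3′ counting a transcript gives 1 UMI whatever its length. Ratios needed 50 UMIs over both libraries for a call. The scripts were tested on simulated data. Alternatives changed the limits on barcodes, the UMI minimum, the clustering, the integration, the weighting of cells and the sub-clusters included.

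The 10 members and all lists were chosen with earlier results of these data known. The members are always named. Of each list all genes were counted and the 2 highest and 2 lowest ratios could be named, and for each member the 3 genes of highest correlation among those in at least 10% of cells. *Odam*, the keratins, *Sprr1a* barcodes and class exceptions were chosen after their values were seen. Plots were made with matplotlib 3.10.9.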

Additional observations from a re-analysis of the deposited data

Results flagged for a closer look

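*Krtdap* had a log2 ratio of LIP over control of 1.16 in *Pappa*-led cells and one below 0 in suprabasal-like cells, and with 1 library for each condition this difference was not tested. Among barcodes left out by the limits on genes, UMIs and mitochondrial share, 3 members stood higher in LIP than in control beyond their counting intervals. In LIP these barcodes held *Sprr1a* at 156 CPM, *Sprr1b* at 73.2 CPM and *Sfn* at 879 CPM, and in control 2.94, 0.652 and 750 CPM. *Krtdap*, *Sbsn*, *Lgals7*, *Perp* and *Mt4* were lower in the LIP barcodes, *Mt4* for example at 904 and 2185 CPM. *Sfn* was also lower among barcodes over the upper limits alone, at 1161 and 1456 CPM. These values pool barcodes of every class, unlike the values of epithelial-like cells above. In all left-out barcodes *Krt14* stood at 5150 CPM in LIP and 5570.5 CPM in control, and *Krt5* at 1698 and 1011 CPM. Of those over the upper limits, 10 of 24 in LIP and 9 of 16 in control were epithelial-like when clustered without these limits. The cause was not tested, nor was the part of this mix.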

How the results depend on the processing

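No paired analysis was possible because each group has 1 library and no test was made, and no replicate could be left out. *Sprr1a* was higher in LIP under all 13 alternatives that gave it a value (log2 3.57 to 8.95), *Mt4* lower under all 14 (-2.62 to -0.81), and *Sbsn*, *Lgals7* and *Perp* likewise lower under all 14. *Krtdap* turned to 0.93 at a mitochondrial limit of 5%, which left 39 LIP and 119 control epithelial-like cells and 6 members to test, and *Sfn* to 0.37 with the mean of the CPM of each cell and to 0.077 with no upper limit on genes or UMIs. *Lor* ranged from -1.68 to 0.29. The number of members 2-fold or more higher was 0 at the 5% limit and without the *Odam*-led cells, and 2 with no upper limit and with no UMI minimum. The number lower was 1 at the 5% limit and with the mean per cell, and smaller changes of that number are not listed. With no upper limit, for example, *Sbsn* stood at 103 CPM in LIP and 186 CPM in control, less than 2-fold lower. The log2 ratio of *Sbsn* ranged from -1.29 to -0.67 over the alternatives. Shares of all genes at 2-fold were not computed under the alternatives, so these counts describe the members only. The median was -0.25 with no upper limit, where the cells were also clustered anew and no *Odam*-led sub-cluster was found. The share of member UMIs in epithelial-like cells of LIP and control was 91.7% and 95% with 15 dimensions, 67.4% and 51.0% at the 5% limit, 97.5% and 98.9% without integration, 95.3% and 97.9% with no upper limit, and 97.5% and 98.9% with the S phase cells added. The cause of these shifts was not tested. The alternatives on upper limits, the S phase cells, the *Odam*-led cells, cells with at least 5000 UMIs and the top cells were chosen after seeing the data. Depth limits *Ivl*, *Lor* and *Sprr1b*, which had 3, 62 and 3 UMIs in control epithelial-like cells.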
